A study of Mus musculus with 9 samples.

Results

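Lung endothelial cells (ECs) from metastasis-bearing mice were compared between treatment with an antibody against VEGF-A and treatment with control IgG. The comparison covered 6 arrays of the 9 in the series, 3 per treatment, and was made over the 34945 probe sets that name 1 gene, which stand for 18193 genes. All mice were of the immunodeficient NSG strain, and the labels give neither age nor sex. Both treated groups carried lung metastases of MDA-MB-231-LM2, a lung-homing derivative of the human breast cancer line MDA-MB-231, which had been injected into the blood 3 weeks before the ECs were taken. One group was given B20, an antibody that binds mouse and human VEGF-A, at 10 mg/kg by repeated intraperitoneal injection, and the other was given control IgG. Healthy mice without cancer cells, given control IgG as well, supplied the other 3 arrays, and these appear below as levels only. The study profiled ECs of 3 mice per group and took mice with a comparable metastatic load, and it sorted the cells as positive for CD31, after exclusion of cells with the leukocyte markers CD45 or CD11b, epithelial CD326, mesenchymal CD140a or CD140b, or the GFP of the cancer cells. The arrays therefore describe ECs of the whole lung, of metastatic nodules and of the tissue between them, and NSG mice lack mature lymphocytes.

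VEGF-A is the principal growth factor of blood vessels. It binds the receptors VEGFR1 and VEGFR2 on ECs, with neuropilins as co-receptors, and it drives sprouting, in which a leading tip cell invades and the stalk cells behind it divide. Antibodies that capture VEGF-A are used to slow vessel growth in tumors, and the question put to these arrays was which features of ECs in metastatic lungs depend on VEGF-A.

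All levels are on a log2 scale after robust multiarray averaging (RMA), so a difference of 1 is a 2-fold difference in signal. Every difference is given as anti-VEGF minus IgG with the standard error (SE) of the limma fit, for 3 against 3 arrays. A gene with several probe sets is represented by the one with the highest mean level over the 9 arrays.

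Endothelial genes read at high levels under both treatments, which does not measure the purity of the sort. Of 24 pan-endothelial genes, none differed between treatments at an unadjusted p under 0.05, and the mean level of this list was 12.56 to 12.61 in the IgG arrays and 12.59 in each anti-VEGF array. Pecam1, which encodes the CD31 of the gate, lay between 13.32 and 13.47 in all 6 arrays, and Cdh5, the VE-cadherin of endothelial junctions, between 13.02 and 13.07. For the markers sorted against, levels were as follows, and without detection calls they do not show whether a transcript was present. Ptprc (CD45) was at 9.25 to 9.33 under IgG and at 9.35 to 9.51 under anti-VEGF, higher in every anti-VEGF array by 0.12 ± 0.09 on average, and Pdgfrb (CD140b) was at 8.85 to 9.35 and 8.88 to 9.21. Itgam (CD11b) and Epcam (CD326) stayed between 6.72 and 7.90 in these arrays, and Pdgfra (CD140a) between 8.80 and 9.65. Arrays of the same group correlated at r = 0.9906 to 0.9936 across genes. As a gauge of RNA quality, the 3′ probe set of beta-actin minus its 5′ probe set was 0.488 to 0.555 under IgG and 0.526 to 0.620 under anti-VEGF, and that of GAPDH was -0.034 to 0.10 and 0.060 to 0.194.

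No single gene separated the treatments after correction for multiple testing. Of 34945 probe sets, 0 had an adjusted p under 0.05 (0%) by limma, and the smallest adjusted p was 0.344, shared by 24 probe sets. At an unadjusted p under 0.05 there were 2667 probe sets, 1303 higher and 1364 lower under anti-VEGF, where 1747.2 are expected if no probe set differs. No gene is therefore described below as changed, and the differences given are estimates with their errors. Counted by gene, 640 genes (3.52%) were higher and 706 genes (3.88%) lower at an unadjusted p under 0.05. All 3 anti-VEGF arrays lay above all 3 IgG arrays for 1128 genes (6.2%) and below them for 1258 genes (6.91%). These shares are the background for each gene group. The median difference over all genes was -0.01, and 90.5% of genes differed by less than 0.25. The 95% interval of a gene's difference reached 0.246 to either side at the median over genes.

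Genes of cell division made up much of the lower side. Of the 109 genes that were lower by over 0.5 at an unadjusted p under 0.05, 29 belonged to a list of 62 mitosis genes, 14 to a list of 58 DNA replication genes and 48 (44.0%) to any of 4 cell division lists, which together held 1.2% of all genes. Of the 75 genes that were higher by over 0.5, 0 belonged to any of these 4 lists. These shares are descriptive, because the lists were chosen with earlier results of these data known. The 4 lists also include the study's own proliferation list, drawn from ECs of the same model.

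**Figure D1:**
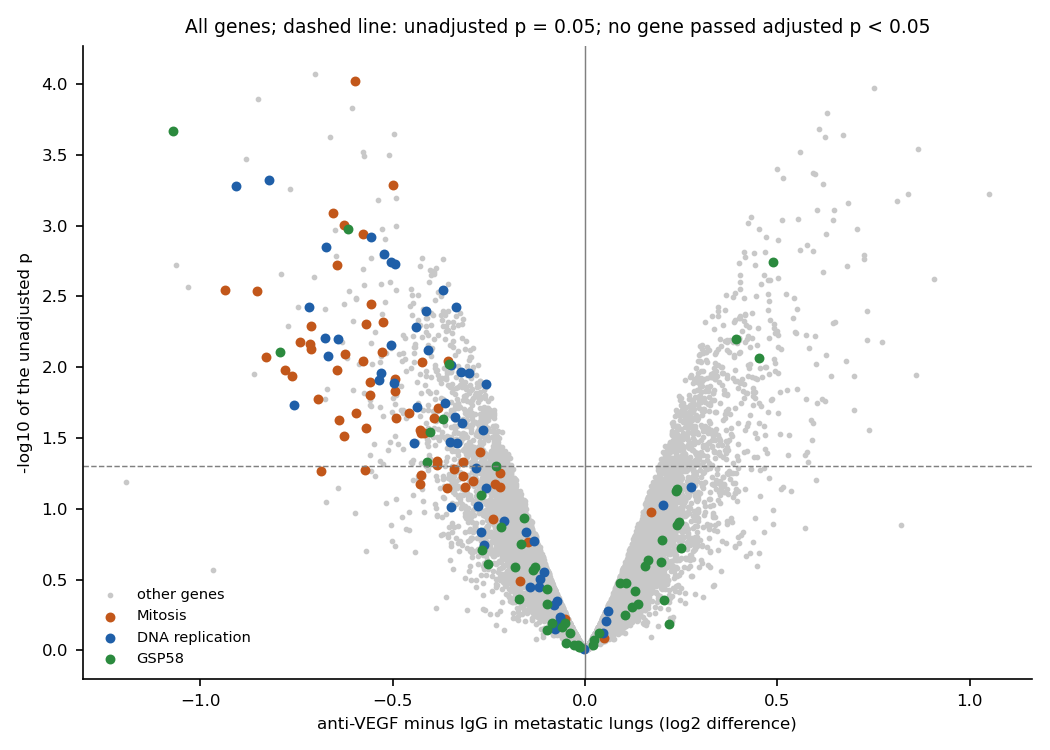
Each point is a gene, placed by its log2 difference (anti-VEGF minus IgG in metastatic lungs) and by the -log10 of its unadjusted p, with the mitosis, DNA replication and GSP58 lists in color. Mitosis and DNA replication genes lie mostly on the lower side, with list medians of -0.50 and -0.33, while the 53 GSP58 genes, secreted factors described below, are spread around a median of -0.03.

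Mitosis genes encode the machinery that condenses chromosomes, attaches them to the spindle and divides the cell. Of 62 measured, 44 were lower and 0 higher at an unadjusted p under 0.05, and 31 had all anti-VEGF arrays below all IgG arrays. The median difference of the list was -0.50, against -0.01 over all genes, with its 25th and 75th percentiles at -0.63 and -0.36. The smallest adjusted p in the list was 0.344. In bulk RNA, fewer dividing cells and less of these transcripts per cell cannot be told apart.

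Among the spindle and kinetochore genes, Cenpf, which encodes a large kinetochore protein, had the lowest difference. It was at 10.31, 10.78 and 10.23 in the IgG arrays and at 9.65, 9.87 and 8.99 in the anti-VEGF arrays, a difference of -0.94 ± 0.23 (adjusted p = 0.488). The groups did not overlap, and the healthy arrays lay lower than both, at 7.90, 7.26 and 7.98. The 2 other, dimmer probe sets of Cenpf gave -0.14 and -0.35, neither at an unadjusted p under 0.05. Tpx2, a spindle assembly factor that activates Aurora A, was at 9.43, 9.98 and 8.87 under IgG and at 8.59, 8.81 and 8.40 under anti-VEGF. Its groups did not overlap, though the third IgG array and the second anti-VEGF array were close, and the difference was -0.83 ± 0.25 (adjusted p = 0.507). The 3 other, dimmer probe sets of Tpx2 gave -0.32, -0.09 and -0.01, none at an unadjusted p under 0.05. Sgo2a, a shugoshin that guards the cohesion of sister centromeres, varied least within groups. Its IgG arrays were at 8.16, 8.19 and 8.30 and its anti-VEGF arrays at 7.58, 7.67 and 7.60, a difference of -0.60 ± 0.09 (adjusted p = 0.344). Knstrn, which encodes a spindle and kinetochore protein, differed by -0.65 ± 0.13, and Kif20a, a kinesin of cytokinesis, by -0.58 ± 0.12. Neither overlapped between treatments.

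The mitosis list held 6 subunits of the condensins, which compact chromosomes, and 5 of them were lower at an unadjusted p under 0.05. Ncapg2, a subunit of condensin II, was at 10.02, 10.38 and 9.46 under IgG and at 8.93, 9.25 and 9.12 under anti-VEGF (-0.85 ± 0.21, adjusted p = 0.488). Ncapg of condensin I was at 10.41, 10.50 and 10.16 and then at 9.71, 9.56 and 9.93 (-0.63 ± 0.13, adjusted p = 0.446). Smc2, the ATPase core that both complexes share, was at 10.74, 10.91 and 10.79 and then at 10.22, 10.35 and 10.37 (-0.50 ± 0.09, adjusted p = 0.414). For these 3 subunits every anti-VEGF array was below every IgG array. Ncapd2 (-0.57 ± 0.21) overlapped, Smc4 (-0.38 ± 0.17) did not, and Ncaph (-0.29 ± 0.14) did not pass. Cdca5, or sororin, which stabilizes the cohesin that condensins act beside, differed by -0.64 ± 0.15.

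The size of the mitosis difference depended on individual arrays, for which mouse, sorting and array cannot be told apart. The list's mean level was 9.49, 9.78 and 9.31 in the IgG arrays and 9.0, 9.22 and 8.91 in the anti-VEGF arrays, beside 8.29, 7.99 and 8.22 in the healthy arrays. The groups did not overlap, and the SD between arrays was 0.236 under IgG and 0.160 under anti-VEGF. The second IgG array held the highest of the 6 values for 51 of the 62 genes. Without it, the median was -0.36 and 28 genes, in place of 44, were lower at an unadjusted p under 0.05. The probe sets that represent these genes are their brightest, at a median level of 9.23. The 85 other probe sets of the same genes had a median level of 7.88 and a median difference of -0.24, and 25 of them were lower at an unadjusted p under 0.05.

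**Figure D2:**
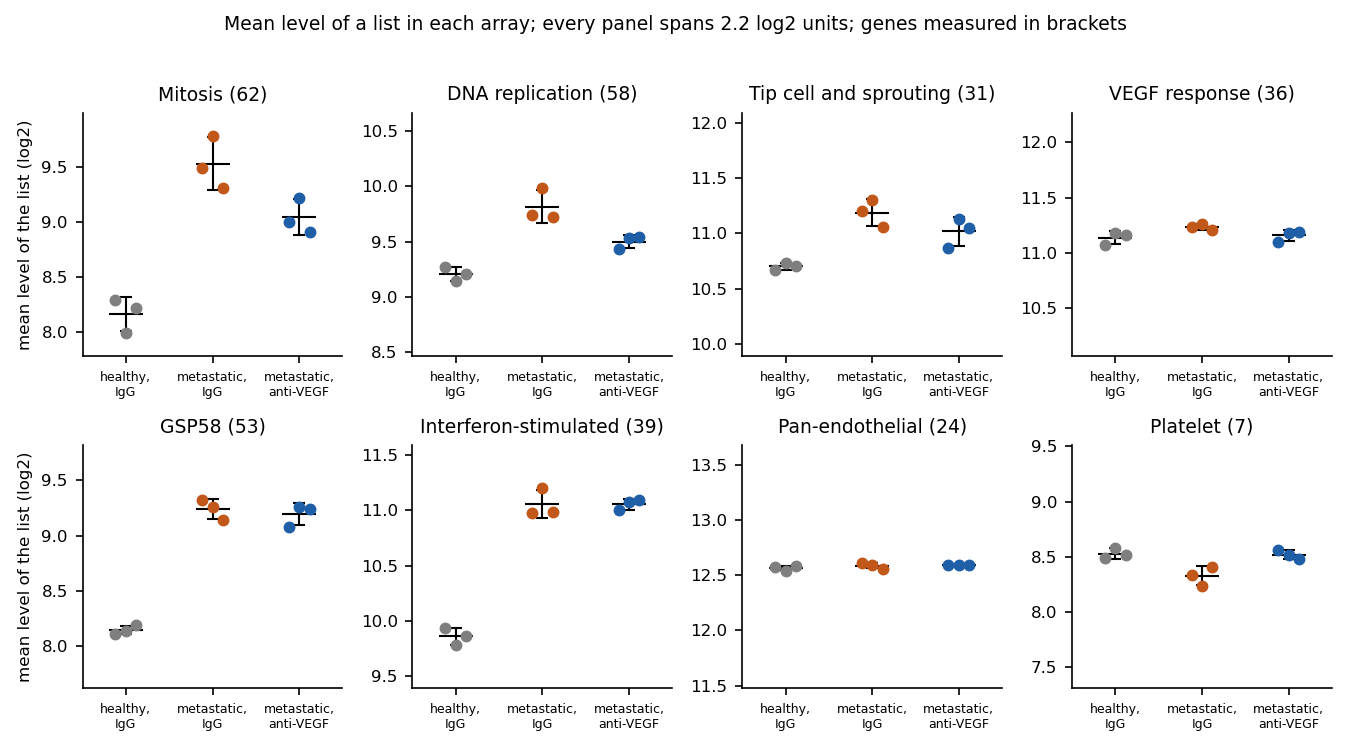
Mean log2 level of 8 gene lists in each of the 9 arrays (points, replicates 1 to 3 from left to right) with the group mean and SD (bar and whiskers); each panel spans the same range of levels. The mitosis and DNA replication means are lower in all 3 anti-VEGF arrays than in any IgG array, whereas the GSP58, interferon-stimulated and pan-endothelial means overlap between the treatments.

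Upstream sequences were examined for all mitosis and DNA replication genes with a sequence, lower or not. The shares of motifs in these lists therefore do not depend on the differences between treatments. In textbook accounts, the CHR element (TTTGAA), read by the DREAM and MuvB complexes, and the CCAAT box (CCAAT), read by NF-Y, mark genes that peak in G2 and mitosis, and E2F sites (TTTCCCGC or TTTGGCGC here) mark genes of the G1/S transition. The 250 bases upstream of each RefSeq start (GRCm38.p6) were searched on both strands, and no motif contains another. Of 51 mitosis genes with a sequence, 19 (37.3%) held a CHR element and 33 (64.7%) a CCAAT box, against 14.1% and 39.4% of 14452 measured genes with a sequence. An E2F motif stood in 3 (5.9%) of them, against 2.3% of all. Of 46 DNA replication genes with a sequence, 8 (17.4%) held an E2F motif, 29 (63.0%) a CCAAT box and 6 (13.0%) a CHR element. A match is a stretch of letters, not a site known to be bound, and nothing in these arrays measures binding.

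The windows of 4 cell division genes are shown because each holds letters of more than 1 of these motifs, in capitals. Ncapg2 (chr12:116405186-116405435, plus strand) holds an E2F motif read on the other strand and a CHR element, Ncapg (chr5:45669675-45669924, plus strand) a CCAAT box read on the other strand and a CHR element, Dtl (chr1:191575545-191575794, minus strand) a CCAAT box and an E2F motif, and Mcm5 (chr8:75109259-75109508, plus strand) an E2F motif read on the other strand and 2 CCAAT boxes. Each reads 5′ to 3′ on the strand of the gene and ends at the base before the start. Smc2 and Mcm2 likewise hold a CHR element and a CCAAT box, as does 9630028H03Rik, the gene with the highest difference, while the windows of Knstrn and Fignl1 hold none of these motifs.
Ncapg2: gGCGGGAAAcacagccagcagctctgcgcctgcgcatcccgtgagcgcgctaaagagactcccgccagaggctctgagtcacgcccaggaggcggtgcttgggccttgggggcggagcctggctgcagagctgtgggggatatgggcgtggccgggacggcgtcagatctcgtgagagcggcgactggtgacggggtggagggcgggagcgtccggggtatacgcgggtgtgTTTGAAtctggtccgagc
Ncapg: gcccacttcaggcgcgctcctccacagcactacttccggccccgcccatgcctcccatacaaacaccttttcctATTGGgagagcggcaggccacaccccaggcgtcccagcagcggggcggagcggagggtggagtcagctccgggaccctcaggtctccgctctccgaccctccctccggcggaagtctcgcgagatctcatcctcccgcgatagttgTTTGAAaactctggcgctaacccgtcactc
Dtl: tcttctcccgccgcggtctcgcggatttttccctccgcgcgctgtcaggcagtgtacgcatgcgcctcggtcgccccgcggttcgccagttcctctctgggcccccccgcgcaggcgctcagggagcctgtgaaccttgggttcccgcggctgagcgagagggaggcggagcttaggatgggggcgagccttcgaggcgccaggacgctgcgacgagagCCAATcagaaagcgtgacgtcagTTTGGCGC
Mcm5: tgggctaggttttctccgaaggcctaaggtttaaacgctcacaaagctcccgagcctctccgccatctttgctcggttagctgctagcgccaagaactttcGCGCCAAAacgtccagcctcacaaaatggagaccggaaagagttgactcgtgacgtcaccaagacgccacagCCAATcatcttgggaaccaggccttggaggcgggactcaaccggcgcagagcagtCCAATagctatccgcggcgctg

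DNA replication genes license origins, unwind the helix and copy it. Of 58 measured, 33 were lower and 0 higher at an unadjusted p under 0.05, and 34 had all anti-VEGF arrays below all IgG arrays. The list's median was -0.33, and its smallest adjusted p was 0.405. Its mean level was 9.74, 9.99 and 9.72 in the IgG arrays and 9.43, 9.53 and 9.54 in the anti-VEGF arrays, again without overlap, and 9.27, 9.14 and 9.21 in healthy lungs. The second IgG array was highest for 41 of the 58 genes, and without it the median was -0.26 and 24 genes were lower at an unadjusted p under 0.05.

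Subunits of the MCM helicase, which opens the double helix at origins, were among the members with the smallest p. Mcm5, whose upstream sequence is shown above, was at 10.99, 11.34 and 10.94 under IgG and at 10.17, 10.50 and 10.58 under anti-VEGF, a difference of -0.67 ± 0.15 (adjusted p = 0.486). Mcm3 and Mcm2 differed by -0.56 ± 0.12 and -0.52 ± 0.12. None of these 3 overlapped between treatments, and all their other probe sets were lower as well, by -0.55 to -0.28. Uhrf1, which reads hemimethylated DNA behind the replication fork and recruits the maintenance methyltransferase, was at 10.18, 10.53 and 10.00 and then at 9.20, 9.49 and 9.55. Its difference was -0.82 ± 0.15 (adjusted p = 0.405), and its second probe set gave -0.95. Healthy arrays were lower still for Uhrf1, at 8.44, 8.46 and 8.33. Atad2, a chromatin ATPase with a bromodomain, differed by -0.50 ± 0.11, and its 2 other probe sets gave -0.42 and 0.38.

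Of the 10 lowest genes of the whole comparison, Dscc1 belonged to the DNA replication list, and Dtl and Fignl1, which belonged to none of the lists, are described here for their roles in replication and repair. Dtl, which directs the CRL4 ubiquitin ligase to the licensing factor Cdt1, was at 9.85, 9.93 and 9.50 under IgG and at 8.81, 9.06 and 8.86 under anti-VEGF (-0.85 ± 0.13, adjusted p = 0.344). All 5 other Dtl probe sets were lower as well, by -0.79 to -0.14. Dscc1, part of an alternative clamp loader used in cohesion, differed by -0.91 ± 0.17, and Fignl1, an ATPase of recombinational repair, by -1.03 ± 0.25. For Dscc1 and Fignl1 a dimmer second probe set gave 0.01 and 0.12, so these rest on 1 probe set each.

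**Figure D3:**
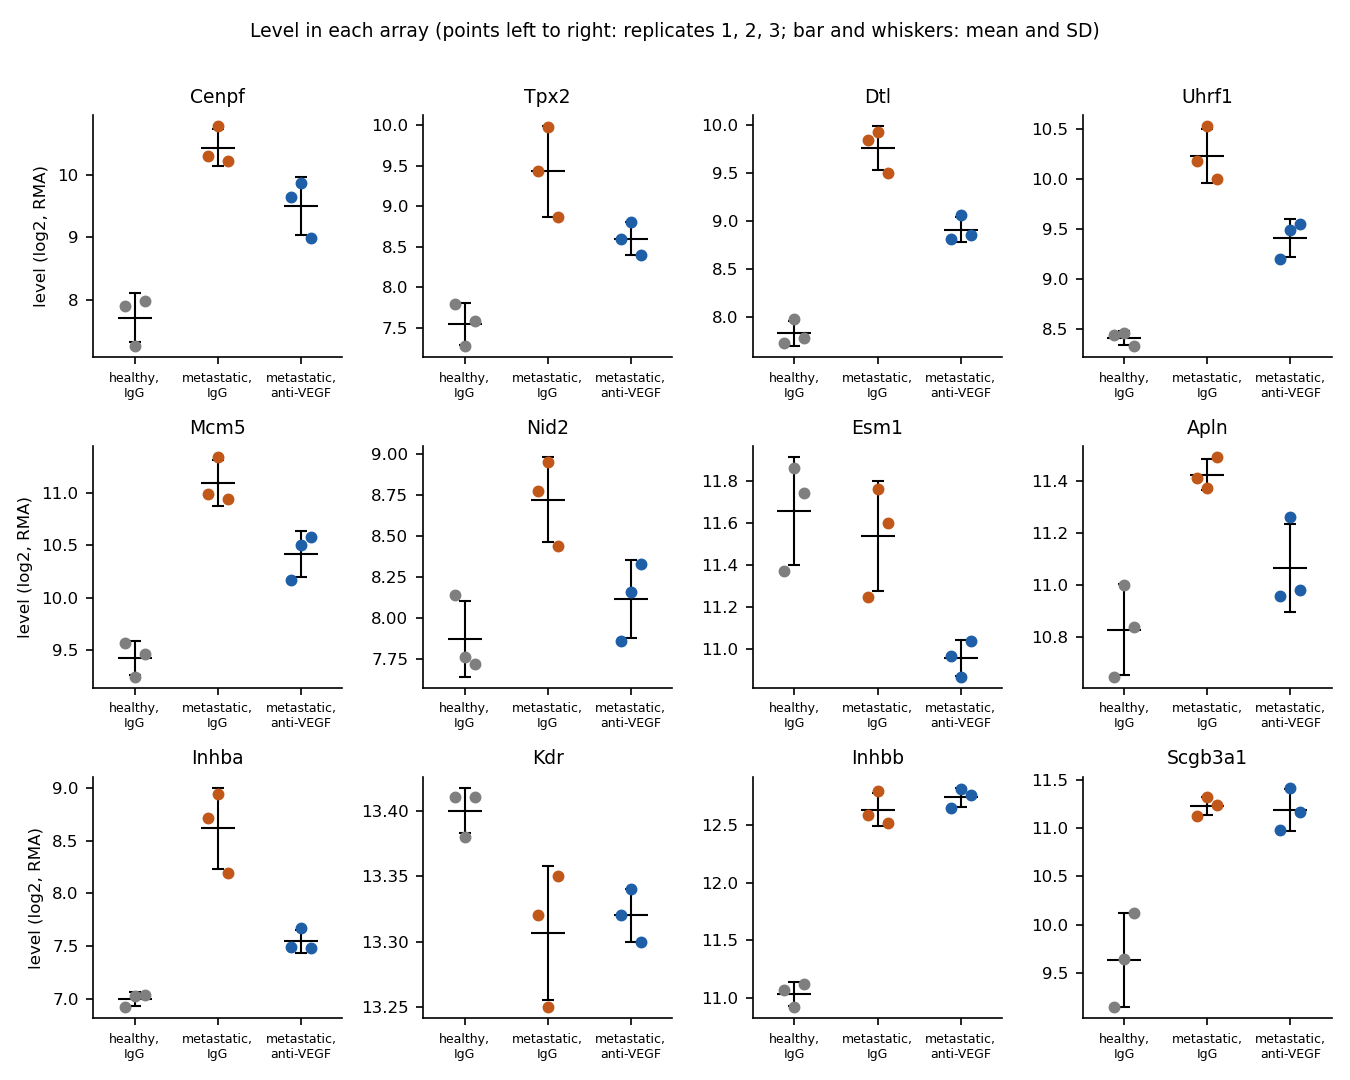
Log2 level of 12 genes in each array (points, replicates 1 to 3 from left to right) with the mean and SD of the group; the vertical scale differs between panels. Cenpf, Tpx2, Dtl, Uhrf1, Mcm5, Nid2, Esm1, Apln and Inhba have all 3 anti-VEGF arrays below all IgG arrays, while Kdr, Inhbb and Scgb3a1 overlap.

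Regulators that time the cell cycle were less uniform. Of 42 measured, 8 were lower and 1 higher at an unadjusted p under 0.05, with a median of -0.11. Those lower included Fbxo5 (-0.49 ± 0.10), the Emi1 inhibitor of the anaphase-promoting complex, Skp2 (-0.53 ± 0.11), which targets the inhibitor p27 for degradation, and Ccne1 (-0.36 ± 0.10), cyclin E1. E2f7 and E2f8, E2F-family repressors that are themselves induced in S phase, differed by -0.54 ± 0.10 and -0.44 ± 0.13, and Lin9, a MuvB subunit, by -0.56 ± 0.16. None of these 6 overlapped between treatments, and their adjusted p-values ran from 0.433 to 0.502. The EC proliferation list of the study, drawn from cell cycle genes that were higher in its week 3 metastatic ECs, gave 43 of 130 lower and 2 higher, with a median of -0.16. Plk4, the kinase of centriole duplication, stood in it at -0.61 ± 0.15, and other Plk4 probe sets gave -0.36 and -0.13. The study's list shares genes with the mitosis and replication lists, and since it was drawn from ECs of the same model it is no independent evidence of direction.

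In the VEGF system itself, 1 of 10 ligands and receptors was higher and 0 lower at an unadjusted p under 0.05, and the median was 0.03. The list's mean level was 11.28 to 11.36 under IgG and 11.37 to 11.41 under anti-VEGF, so that the groups nearly met. Kdr, which encodes VEGFR2, the main signaling receptor, was at 13.32, 13.25 and 13.35 under IgG and at 13.32, 13.34 and 13.30 under anti-VEGF. The groups overlapped and the difference was 0.01 ± 0.08, with a 95% interval of -0.18 to 0.20. Flt1, the VEGFR1 that binds VEGF-A tightly, differed by -0.01 ± 0.09 (95% interval -0.21 to 0.20). Its 3 other probe sets gave -0.08, -0.17 and -0.25, the last at an unadjusted p under 0.05. Flt4, the VEGF-C receptor VEGFR3, differed by -0.05 ± 0.09. The neuropilins Nrp1 and Nrp2 differed by 0.03 ± 0.10 and -0.05 ± 0.11. Vegfa, the transcript of the antibody's target, differed by 0.03 ± 0.09 in the ECs (95% interval -0.18 to 0.24), and the VEGF-A of other cells was not measured.

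Among the other ligands, Vegfb was the member with an unadjusted p under 0.05. It was at 8.99, 8.92 and 8.99 under IgG and at 9.16, 9.27 and 9.13 under anti-VEGF, a difference of 0.22 ± 0.09 (adjusted p = 0.631). Vegfc, a ligand of VEGFR3, was also higher in every anti-VEGF array, by 0.20 ± 0.09 (adjusted p = 0.68). Pgf, placental growth factor, a VEGFR1 ligand, differed by 0.29 ± 0.20 and Vegfd by 0.10 ± 0.19, both with overlapping groups.

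Genes that respond to VEGF-A in ECs were lower in part. In a general VEGF response list, 5 of 36 genes were lower and 1 higher at an unadjusted p under 0.05, with a median of -0.04. Its mean level was 11.21 to 11.26 under IgG and 11.10 to 11.19 under anti-VEGF, without overlap. In a list of tip cell and sprouting genes, 7 of 31 were lower and 0 higher, with a median of -0.06, and the mean level overlapped, at 11.06 to 11.30 and 10.87 to 11.13. Esm1, the tip cell proteoglycan endocan, was at 11.25, 11.76 and 11.60 under IgG and at 10.97, 10.87 and 11.04 under anti-VEGF. This difference of -0.58 ± 0.13 (adjusted p = 0.488) came without overlap, and the healthy arrays, at 11.37, 11.86 and 11.74, lay near those of IgG. Apln, the tip cell ligand apelin, was at 11.41, 11.37 and 11.49 and then at 10.96, 11.26 and 10.98 (-0.35 ± 0.11, adjusted p = 0.516). Angpt2, an antagonist of Tie2 that destabilizes vessels, differed by -0.27 ± 0.09 and Unc5b, a netrin receptor of tip cells, by -0.41 ± 0.15. Neither overlapped. F3, tissue factor, differed by -0.51 ± 0.20 with 1 anti-VEGF array among the IgG values.

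In the VEGF response list, 15 genes differed by more than 0 and 21 by less. The member that was higher at an unadjusted p under 0.05 was Rcan1, a calcineurin inhibitor induced by VEGF-A in culture. Its level was 11.96 ± 0.06 (SD) under IgG and 12.18 ± 0.08 under anti-VEGF, without overlap, a difference of 0.22 ± 0.09 (adjusted p = 0.632). Of the 3 VEGF target genes that the study examined in these mice, Nid2 and Mest were analyzed here. Nid2, which encodes the basement membrane linker nidogen 2, was at 8.77, 8.95 and 8.44 under IgG and at 7.86, 8.16 and 8.33 under anti-VEGF (-0.60 ± 0.16, adjusted p = 0.488). Its groups did not overlap, while those of Mest did (-0.05 ± 0.11). The study showed these genes in the same samples, so their direction is no independent evidence.

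Notch and angiopoietin signaling, which restrain sprouting and steady vessels, had members on both sides. Of 23 genes, 2 were higher and 2 lower at an unadjusted p under 0.05, with a median of -0.01. Of the Notch ligands, Dll1 was higher by 0.24 ± 0.09 and Jag2 differed by -0.38 ± 0.14, both without overlap. A second Jag2 probe set gave -0.10. Angpt2, given above, was the other lower member. Angpt1, the Tie2 agonist made mostly by mural cells, was higher by 0.33 ± 0.13 with overlapping groups. Notch4, an endothelial Notch receptor, was lower in every anti-VEGF array, by -0.16 ± 0.09, and did not pass.

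Basement membrane genes, which lay down the sheet beneath ECs, were lower for 6 of 19 members and higher for 0, with a median of -0.14. Lamb1, the laminin beta1 chain, was at 10.75, 11.01 and 10.07 under IgG and at 9.25, 10.06 and 9.94 under anti-VEGF (-0.86 ± 0.27, adjusted p = 0.52). The third IgG array (10.07) and the second anti-VEGF array (10.06) nearly met, and all 3 other probe sets were lower too, by -0.94 to -0.50. Its partner chain Lamc1, laminin gamma1, differed by -0.32 ± 0.14 and Lama3, laminin alpha3, by -0.27 ± 0.10. Of the collagens, Col4a5 of the basement membrane network differed by -0.26 ± 0.09 and Col18a1, the precursor of endostatin, by -0.41 ± 0.18. Lamc1 and Col18a1 overlapped between treatments, Lama3 and Col4a5 did not. Second probe sets gave -0.28 for Lamc1, -0.44 for Col18a1, -0.17 for Col4a5 and -0.03 for Lama3. The mean level of this list overlapped between treatments, at 10.57 to 10.78 and 10.42 to 10.59.

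A set of secreted factors was the study's central interest. GSP58 is its list of genes for secreted proteins that were higher in ECs of metastatic lungs at week 3, of which 53 were measured here. It was drawn from ECs of the same model and is no independent evidence of direction against healthy lungs. At an unadjusted p under 0.05, 3 were higher and 7 lower under anti-VEGF, beside 3.52% and 3.88% of all genes. Both shares lay above that background, more so for the lower members. The median was -0.03, with 23 members above 0 and 30 below. The mean level was 9.14 to 9.32 under IgG and 9.08 to 9.26 under anti-VEGF. The treatments overlapped and both lay above the healthy arrays, at 8.11 to 8.19.

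Inhba, which encodes the beta subunit of activin A, belongs to GSP58 and had the lowest difference of all genes at an unadjusted p under 0.05. It was at 8.72, 8.94 and 8.19 under IgG and at 7.49, 7.67 and 7.48 under anti-VEGF, a difference of -1.07 ± 0.18 (adjusted p = 0.344). The groups did not overlap, and healthy arrays were at 6.92, 7.03 and 7.04. A second, dimmer Inhba probe set gave 0.08. Prrg3, a membrane protein with a Gla domain, was at 11.42, 11.41 and 11.08 and then at 10.11, 11.10 and 10.31 (-0.79 ± 0.23, adjusted p = 0.502), where 1 anti-VEGF array reached the IgG values. Lalba, the milk protein alpha-lactalbumin, differed by -0.62 ± 0.13 without overlap. On the other side were Fjx1, a four-jointed homolog (0.49 ± 0.11), S100a8, a calgranulin that neutrophils make in large amounts (0.45 ± 0.13), and Pdgfc, a PDGF ligand (0.39 ± 0.11). All 3 had every anti-VEGF array above every IgG array. A second Pdgfc probe set gave 0.03, and other probe sets of Fjx1 gave 0.24 and 0.07.

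The vascular niche factors, 4 members of GSP58 that the study followed further, overlapped between treatments. Inhbb, the beta subunit of activin B, was at 12.59, 12.79 and 12.52 under IgG and at 12.65, 12.81 and 12.76 under anti-VEGF. The difference was 0.11 ± 0.10, with a 95% interval of -0.13 to 0.34. Scgb3a1, a small secreted secretoglobin, was at 11.13, 11.32 and 11.24 and then at 10.98, 11.42 and 11.17 (-0.04 ± 0.12, interval -0.32 to 0.24). Tnfrsf11b, the decoy receptor osteoprotegerin, differed by -0.13 ± 0.11 (interval -0.38 to 0.11), and Lama1, the laminin alpha1 chain, by 0.16 ± 0.13 (interval -0.13 to 0.45). None had an adjusted p below 0.826, and together the intervals span -0.38 to 0.45. The healthy arrays of Inhbb lay at 10.92 to 11.12 and those of Scgb3a1 at 9.14 to 10.12, below all 6 metastatic arrays.

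**Figure D4:**
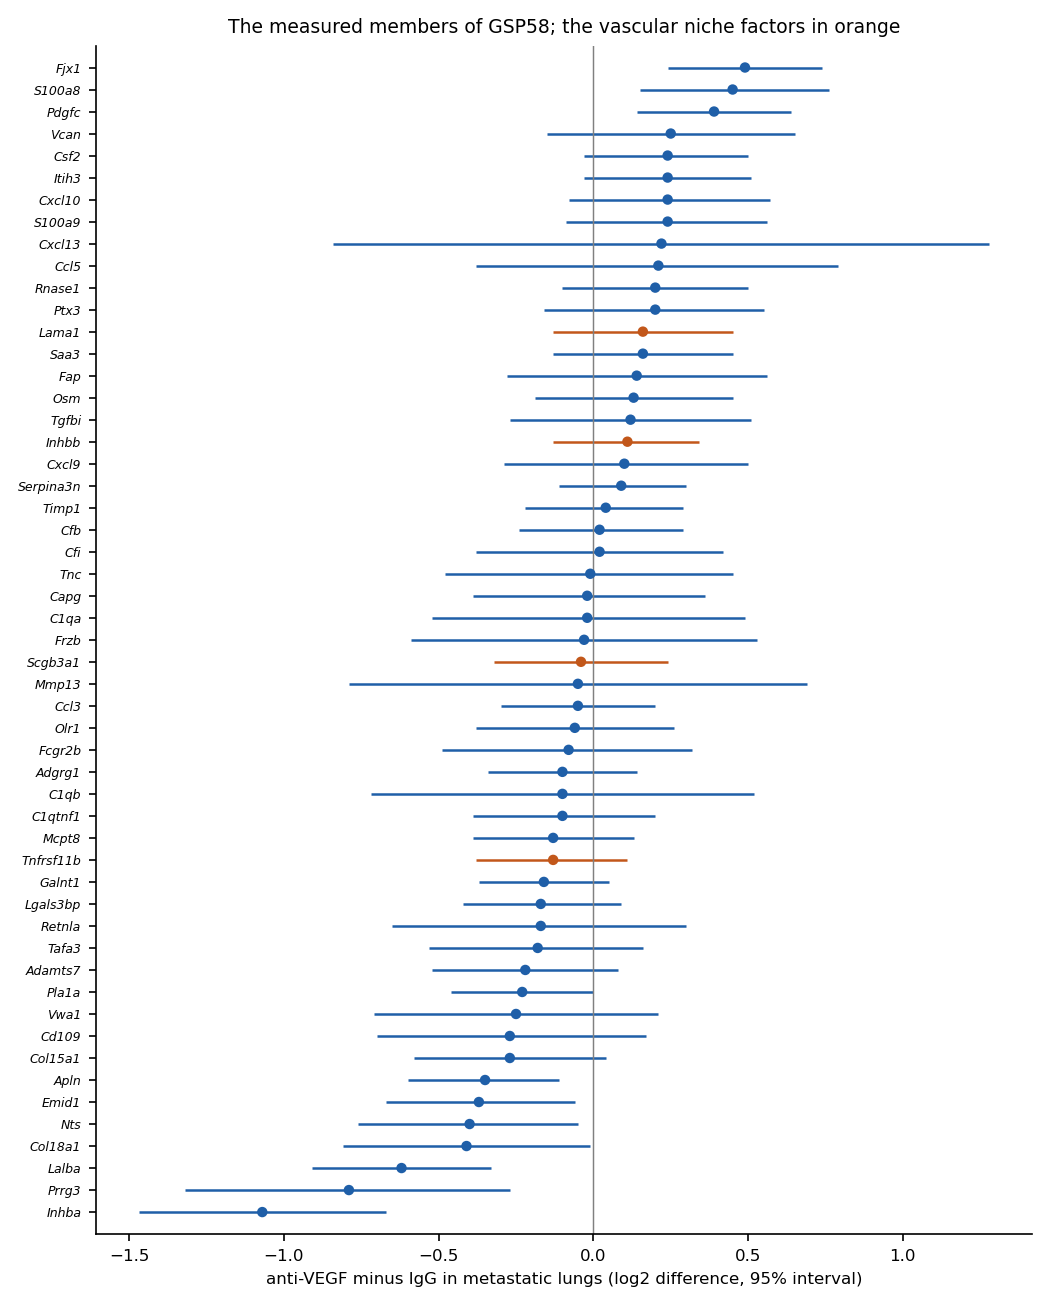
Log2 difference (anti-VEGF minus IgG) of the 53 measured GSP58 genes, with the 95% interval of the limma fit; the 4 vascular niche factors are in orange. Inhba, Prrg3 and Lalba lie farthest to the lower side, and the intervals of all 4 niche factors include 0.

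Inflammatory and interferon genes showed few differences beyond the background. The study's EC inflammation list, inflammatory response genes that were higher in its week 3 ECs, had 1 of 66 higher and 3 lower at an unadjusted p under 0.05, with a median of 0.01. Tnfrsf9, the costimulatory receptor 4-1BB, was the one higher, by 0.54 ± 0.14 (adjusted p = 0.488), and its other probe sets gave 0.08 and 0.05. Marco, a scavenger receptor of macrophages, differed by -0.33 ± 0.10 and Itgb3, the beta3 integrin of activated ECs and platelets, by -0.35 ± 0.14. Second probe sets gave 0.00 for Marco and -0.12 for Itgb3. Of 39 interferon-stimulated genes, 2 were higher and 0 lower, with a median of 0.00. These were Iigp1, an immunity-related GTPase (0.25 ± 0.10), and Dhx58, the RNA sensor LGP2 (0.34 ± 0.11), whose other probe sets gave -0.12 and 0.22. The mean level of this list was 10.98 to 11.20 under IgG, 11.00 to 11.09 under anti-VEGF and 9.78 to 9.94 in healthy lungs. Of 17 antigen presentation genes, 0 passed in either direction.

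Chemokine, adhesion and NF-kB genes had a share of higher members near that of all genes by unadjusted p, but the list leaned to the higher side. Of 32, 1 was higher and 0 lower at an unadjusted p under 0.05, beside 3.52% and 3.88% of all genes. All anti-VEGF arrays lay above all IgG arrays for 5 of the 32, beside 6.2% of all genes. The difference was above 0 for 22 and below 0 for 10, and the median was 0.09. The list's mean level was 9.82 to 9.90 under IgG and 9.91 to 10.0 under anti-VEGF, so that the groups nearly met. Macrophage and monocyte markers (median 0.12) and platelet markers (median 0.18), given below, lay on the same side, and their part in this list was not tested. Birc3, an NF-kB target that inhibits apoptosis, was at 10.79, 10.83 and 10.82 and then at 11.05, 11.05 and 11.08 (0.24 ± 0.08, adjusted p = 0.549), and its second probe set gave 0.46. Selp, the P-selectin of activated ECs, differed by 0.17 ± 0.09 without overlap. Complement and acute phase genes had a median of 0.08, with 0 of 18 higher and 1 lower, Saa1 (-0.34 ± 0.14), whose other probe set gave 0.03. Immediate early and dissociation stress genes had a median of 0.10, with 0 of 20 past an unadjusted p of 0.05. Of these, 18 differed by more than 0 and 2 by less. In 4 of the 20 all anti-VEGF arrays lay above all IgG arrays and in 1 below, beside 6.2% and 6.91% of all genes. The part of handling stress in other lists was not tested.

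Of the metabolic lists, those of glycolysis and of ribosome biogenesis leaned to the lower side. Among 32 glycolysis and hypoxia genes, 25 differed by less than 0 and 7 by more, with a median of -0.10. Their mean level overlapped, at 10.80 to 10.97 under IgG and 10.72 to 10.91 under anti-VEGF. At an unadjusted p under 0.05, 2 were higher and 5 lower. Lower were Pgk1 (-0.31 ± 0.10), Pfkp (-0.27 ± 0.09) and Hk1 (-0.27 ± 0.11), which encode glycolytic enzymes, and P4ha2 (-0.37 ± 0.12), a collagen prolyl hydroxylase. Other probe sets gave -0.37 and -0.35 for Pgk1, -0.07 and 0.05 for Pfkp, and -0.02 for Hk1. Higher were Aldoc, an aldolase (0.42 ± 0.11), and Car9, a carbonic anhydrase induced by hypoxia (0.23 ± 0.09). Car9 was dim, with a mean of 6.85 under IgG and 7.08 under anti-VEGF. Each of these 6 genes had groups that did not overlap. Of 30 sterol synthesis and mTORC1 genes, 4 were lower and 0 higher, among them Slc7a5, the large neutral amino acid transporter. It was at 8.50, 8.07 and 8.23 under IgG and at 7.38, 7.49 and 8.02 under anti-VEGF (-0.63 ± 0.18, adjusted p = 0.5). Psat1, of serine synthesis, and Asns, asparagine synthetase, differed by -0.60 ± 0.20 and -0.37 ± 0.13, again without overlap. Ribosome biogenesis and Myc target genes had a median of -0.10, with 2 of 40 lower and 0 higher. Of these genes, 34 differed by less than 0 and 6 by more. Their mean level was 10.71 to 10.73 under IgG and 10.52 to 10.69 under anti-VEGF, without overlap. The unfolded protein response (0 of 23), proteasome (0 of 32) and oxidative phosphorylation (1 of 23) lists stayed near the median of all genes. The mean level of oxidative phosphorylation genes was 11.91 to 11.93 under IgG and 11.85 to 11.90 under anti-VEGF, so that the groups nearly met.

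Lists of vessel type markers differed by small amounts. Of 20 arterial genes, 2 were lower and 0 higher, and the list's mean level was 11.71 to 11.74 under IgG and 11.66 to 11.69 under anti-VEGF. The lower members were Unc5b (above) and Gja5, connexin 40, which differed by -0.36 ± 0.14. Venous genes had a median of 0.12 with 0 of 10 past an unadjusted p of 0.05, and their mean level was 11.33 to 11.37 under IgG and 11.43 to 11.46 under anti-VEGF, without overlap. Of 6 lymphatic genes 0 passed. General capillary genes had 1 of 11 lower and 0 higher, with a mean level of 12.58 to 12.60 under IgG and 12.53 to 12.57 under anti-VEGF. Their lower member Lpl, lipoprotein lipase, was at 12.55, 12.16 and 12.59 under IgG and at 11.98, 11.90 and 11.83 under anti-VEGF. The groups did not overlap, the difference was -0.53 ± 0.13 (adjusted p = 0.488), and a second probe set gave -0.52. Anti-VEGF levels of Lpl were near those of healthy lungs, 11.89 to 11.91.

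BMP and TGF-beta signaling genes, 32 in number, held 2 higher and 4 lower members. Apart from Inhba, those lower were Tgfb1 (-0.33 ± 0.10, with 0.18 from a dimmer second probe set), Smad6, an inhibitory Smad induced by BMP (-0.29 ± 0.10), and Fstl3, a follistatin-like inhibitor of activins (-0.24 ± 0.09). Higher were Ltbp1, which binds latent TGF-beta (0.31 ± 0.10), and Tgfbr3, a co-receptor (0.20 ± 0.08). Vasoactive and coagulation genes had a median of 0.01, with 2 of 23 higher and 2 lower. F8, coagulation factor VIII, made by ECs, was at 9.29, 9.60 and 8.82 and then at 9.62, 10.15 and 9.99 (0.68 ± 0.20, adjusted p = 0.51), and its lowest anti-VEGF array was close to the highest IgG array. Plat, the tissue plasminogen activator, differed by -0.25 ± 0.09 (a dimmer second probe set gave 0.15), and Entpd1, the ATP-hydrolyzing ectoenzyme CD39, by 0.24 ± 0.10.

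None of the 10 genes with the highest differences, among those without overlap and at an unadjusted p under 0.05, belonged to any of the 42 lists. Slc2a3, the glucose transporter GLUT3, had the smallest p of them, at 7.65, 7.70 and 8.00 under IgG and at 8.46, 8.54 and 8.60 under anti-VEGF (0.75 ± 0.11, adjusted p = 0.344). Thsd4, a matrix protein that associates with fibrillin, was at 8.17, 7.66 and 7.99 and then at 8.68, 8.72 and 9.02 (0.87 ± 0.15), although its second probe set gave -0.16. Cyp1a1, the classic target of the aryl hydrocarbon receptor, was at 7.55, 7.86 and 7.58 and then at 8.56, 8.14 and 8.73 (0.81 ± 0.16), with healthy arrays above both at 9.75, 10.47 and 10.07. None of these 3 overlapped between treatments. Cyp26b1, which degrades retinoic acid, differed by 0.86 ± 0.27 and Sema5b, a semaphorin, by 0.84 ± 0.16. The others were 9630028H03Rik (1.05 ± 0.20), Rfpl4 (0.91 ± 0.21), Pitpnm3, a phosphatidylinositol transfer protein (0.77 ± 0.22), Sowaha (0.73 ± 0.21) and 1700084J12Rik (0.73 ± 0.19). For 5 of the 10 the array holds 9 further probe sets, of which 3 were higher and 1 was lower at an unadjusted p under 0.05. That of 9630028H03Rik gave 0.03, and those of Pitpnm3 gave -0.35, 0.11 and 0.45. Most of the 10 were dim: 3 lay above the median level of all genes, against 7 of the 10 lowest genes.

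At the other end, by the same criteria, 7 of the 10 lowest genes had 16 further probe sets, of which 4 were lower and 0 higher at an unadjusted p under 0.05, those of Dtl and Lamb1. Besides the genes described above, the lowest 10 held Dusp4, a phosphatase that turns off MAP kinases. It was at 10.57, 10.43 and 10.92 under IgG and at 9.58, 10.01 and 9.68 under anti-VEGF (-0.88 ± 0.15, adjusted p = 0.351), without overlap. Lrrc3b differed by -1.06 ± 0.24.

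Marker lists of other cell types were read at low levels for several types. Below the median level of all probe sets were 10 of 10 lymphocyte, 5 of 5 mesothelial, 9 of 10 neutrophil and 7 of 9 mast cell and basophil genes, so that presence of these cells is not shown. Other lists were brighter, with 3 of 15 fibroblast, 5 of 13 pericyte and smooth muscle, 6 of 17 epithelial and 9 of 24 macrophage and monocyte genes below it. The fibroblast marker Col1a2 averaged 11.85 under IgG and 11.66 under anti-VEGF, and Fn1 averaged 11.59 and 11.36. What such cells contributed to other lists was not tested. Platelet genes had the largest share of members higher at an unadjusted p under 0.05. Pf4, platelet factor 4, was at 8.55, 8.40 and 8.26 under IgG and at 8.88, 8.80 and 8.93 under anti-VEGF (0.47 ± 0.10, adjusted p = 0.486). Ppbp, another platelet chemokine, and Itga2b, the alphaIIb integrin, were higher by 0.40 ± 0.09 and 0.26 ± 0.10, and these 3 of 7 platelet genes had groups that did not overlap. The mean level of the list was 8.24 to 8.41 under IgG and 8.48 to 8.56 under anti-VEGF, beside 8.49 to 8.58 in healthy lungs. Its 4 other genes did not pass, and the part of platelets in other differences was not tested.

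Leukocyte markers were uneven. Of 24 macrophage and monocyte genes, 3 were higher and 1 lower at an unadjusted p under 0.05, with a median of 0.12 and a mean level of 9.28 to 9.39 under IgG and 9.30 to 9.60 under anti-VEGF. Higher were Cd14, the lipopolysaccharide co-receptor (0.39 ± 0.12), Aif1 (0.32 ± 0.12) and Laptm5 (0.28 ± 0.11), the last with -0.12 to 0.14 from its 4 other probe sets. Of 10 neutrophil genes 1 was higher, S100a8, which is also a GSP58 member, and the median was 0.19. The list's mean level was 7.45 to 7.75 and 7.71 to 7.90. Mpo, the myeloperoxidase of granulocyte precursors, was at 9.10 in the third anti-VEGF array and between 6.71 and 6.99 in the other 5 arrays. How far these cells contributed to S100a8 or to the inflammatory lists was not tested.

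The remaining marker lists had mean levels that overlapped between treatments. Of 15 fibroblast genes 1 was higher (Lum, 0.30 ± 0.10), of 13 pericyte and smooth muscle genes 1 (Abcc9, 0.32 ± 0.10) and of 10 lymphocyte genes 1 (Nkg7, 0.32 ± 0.14), with 0 lower in each. Other probe sets of Abcc9 gave 0.06 and 0.02. Epithelial (17), mesothelial (5), erythroid (5) and mast cell and basophil (9) genes had 0 past an unadjusted p of 0.05.

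**Figure D5:**
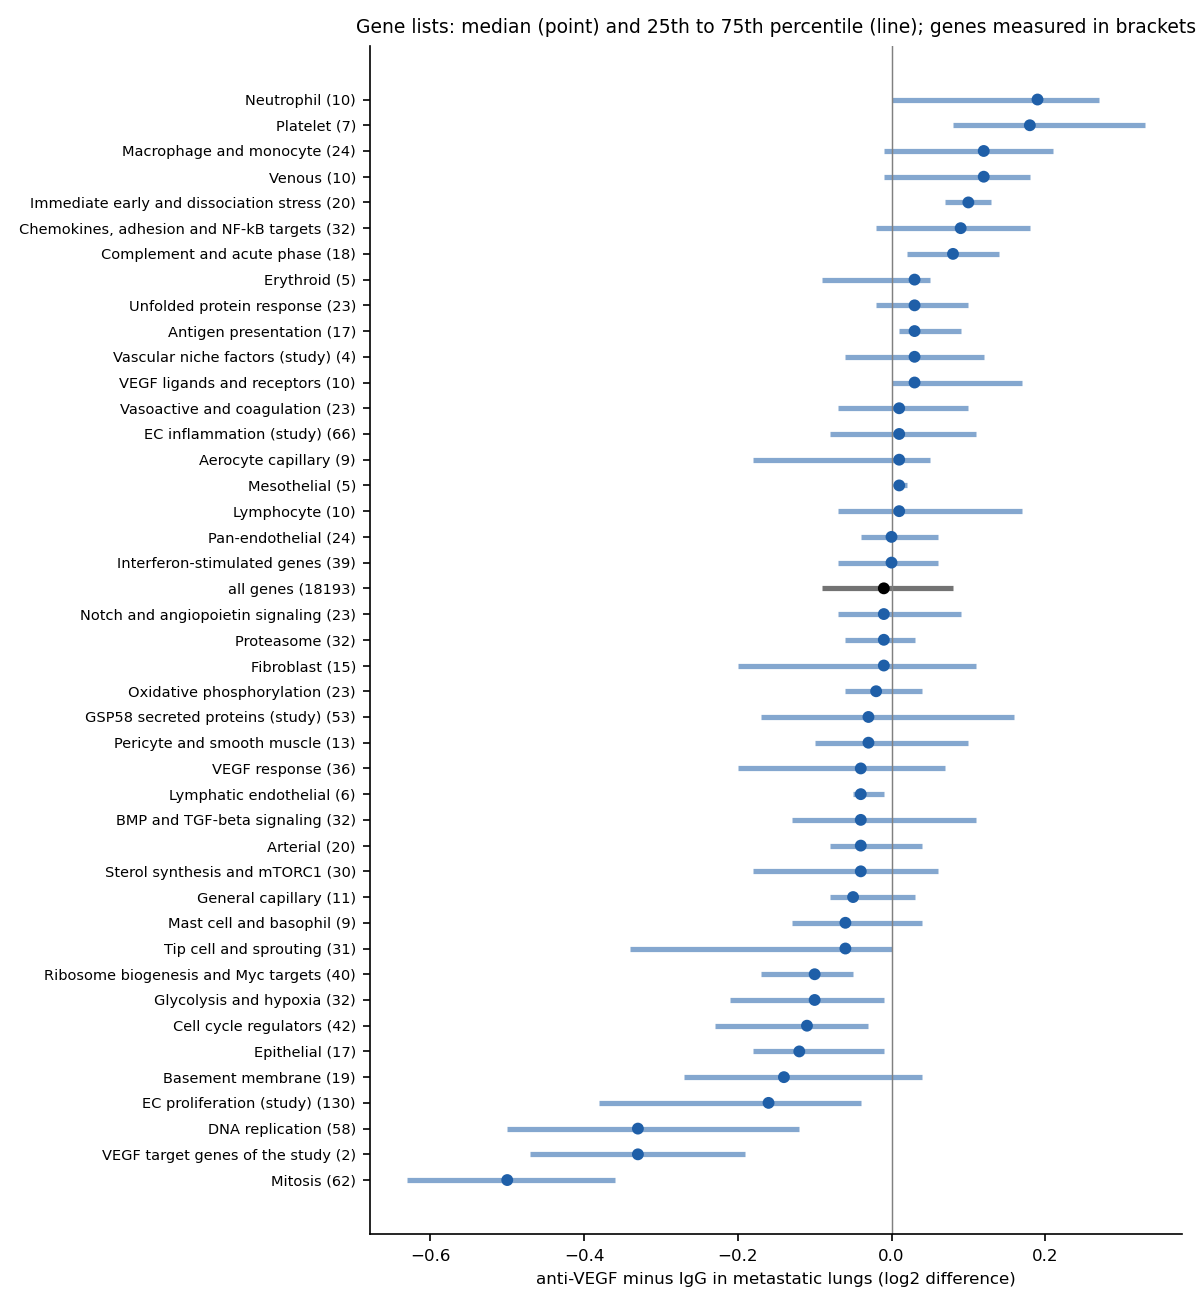
Log2 difference (anti-VEGF minus IgG) of the 42 gene lists and of all genes, as the median (point) and the 25th to 75th percentile (line) over the measured members; all genes are in black. The mitosis list, at -0.50, and the DNA replication list, at -0.33, lie lowest among lists of more than 2 genes, and the neutrophil and platelet lists lie highest at 0.19 and 0.18.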

How the data were processed

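Sorted lung ECs were profiled on Affymetrix mouse genome arrays from 1 ng of total RNA, amplified with a 3′ IVT Pico kit. The authors normalized the arrays by RMA, and the deposited values are log2 expression levels of 45101 probe sets, with no columns of fold changes or p-values. Arrays have no read depth, so that their number, 3 per group, limits the precision.

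Gene names came from the platform annotation. Of the probe sets, 34958 named 1 gene, 932 named several and 9211 were not in the gene table. After removal of 13 control probe sets, 34945 entered a linear model with moderated variances (limma 3.58.1 under R 4.3.3, two-sided) of the 6 arrays, without a block, and p-values were adjusted by the Benjamini-Hochberg method over all of them. A gene was called at an adjusted p under 0.05. The fit was tested on simulated data. The p-values measure the spread between mice of one experiment. Replicate numbers did not pair the arrays: deviations from the group means of same-numbered arrays correlated at -0.010, -0.012 and -0.074.

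The members and the 42 gene lists (1092 of 1154 written members measured) were chosen with earlier results of these data known. Genes were named by rule: the 10 highest and 10 lowest differences among genes at an unadjusted p under 0.05 without overlap, all VEGF ligands, receptors, VEGF target genes and niche factors, up to 6 members with the smallest p of each other list, and genes of the sort gate. Mpo was named after its values were seen. Alternatives varied the arrays fitted, the probe sets, the scaling and the variance model. Upstream sequences were those of RefSeq (GRCm38.p6), matched by symbol.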

Additional observations from a re-analysis of the deposited data

How the results depend on the processing

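No probe set reached an adjusted p under 0.05 (0 called) with any alternative run, and the smallest adjusted p ranged from 0.0813, with all 9 arrays in one fit, to 0.669, without the first IgG array. At an adjusted p under 0.25, 40 probe sets stood in the fit of all 9 arrays, 51 with trend and robust variance settings, 27 among probe sets above the median level and 1 without the third IgG array, against 0 in the fit reported. The count at an unadjusted p under 0.05 (2667) was 1563 among probe sets above the median level, 1462 with 1 probe set per gene and 1439 with probe sets averaged by gene, where fewer features were tested. The count of probe sets higher by over 0.5 (155) was 54, 75 and 50 in these settings and that of probe sets lower by over 0.5 (181) was 98, 109 and 70. Leaving out 1 array at a time gave 2249 to 2772, 205 to 234 and 158 to 362 for these 3 counts, with the maxima of the last pair, 234 and 362, without the third IgG array, and 304 lower without the second anti-VEGF array. The number of mitosis genes lower at an unadjusted p under 0.05 (44) was 28 to 51, with 28 without the second IgG array, and that of DNA replication genes (33) was 24 to 35. These counts by list were added after seeing that this array held the highest values. The median of the mitosis list was -0.618 to -0.36 and that of the DNA replication list -0.375 to -0.258 when 1 array was left out. With the replicate number as a block (replicate block), 0 probe sets were called and 2455 stood at an unadjusted p under 0.05, and it changed no other call.

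Some differences turned sign in other settings, most of them near 0 but also those of Dhx58, Laptm5 and Saa1, which stood at an unadjusted p under 0.05, and the cause was not tested. With probe sets averaged by gene these were Cdh5 (-0.025), Epcam (0.024), Nrp1 (-0.088), Nrp2 (0.084) and Vegfa (-0.021). With probe sets lacking a shared-sequence suffix they were Dhx58 (-0.117), Laptm5 (-0.122), Saa1 (0.025), Vegfa (-0.071) and Vegfd (-0.073). Centering arrays on their median gave 0.005 for Flt1 and for Pdgfra, and a second quantile normalization gave 0.003 for Pdgfra. Leaving out 1 array at a time gave ranges that crossed 0 for Epcam (-0.172 to 0.031), Flt1 (-0.06 to 0.029), Itgam (-0.104 to 0.238), Kdr (-0.019 to 0.033), Mest (-0.151 to 0.006), Nrp1 (-0.013 to 0.09), Nrp2 (-0.13 to 0.021), Pdgfra (-0.269 to 0.156), Pdgfrb (-0.138 to 0.108), Scgb3a1 (-0.153 to 0.064), Vegfa (-0.025 to 0.064) and Vegfd (-0.084 to 0.262).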
